A study of Mus musculus with 26 samples.

Results

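Hearts null for an Nkx2.5 allele that lacks the NK2-specific domain were compared with hearts heterozygous for it, at embryonic day 12.5 in the mouse. Hearts were assigned by the genotype in their sample titles, which gave 4 null hearts (3, 4, 8 and N3) and 4 heterozygous hearts (5, 6, 12 and N2), 8 of the 13 hearts of the series. The other 5 were wild-type hearts (1, 2, 7, 9 and N1), and they are used here to place the values of both mutant genotypes. RNA came from whole hearts, so every compartment of the organ contributed, and each heart was run on an A and a B oligonucleotide array. Every null and heterozygous heart carried at least 1 deleted allele, so the comparison asks what differs between 1 and both alleles being affected. The labels do not give the strain, sex or litter of the embryos, nor whether the domain was removed in every cell, and p-values therefore measure only the spread between these hearts.

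Nkx2.5 is a homeodomain transcription factor of cardiac progenitors and of the myocardium, where it acts together with GATA, T-box, MEF2 and HAND factors. The NK2-specific domain is a short conserved stretch on the carboxyl side of the homeodomain. Genes linked to Nkx2.5 in earlier work include sarcomere proteins, natriuretic peptides, ion channels and connexins of the conduction system. No probe set on either array was annotated to Nkx2-5 (0 on A and 0 on B), so its own level was not analysed here.

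A value is the deposited linear intensity of a probe set, a group of oligonucleotides for 1 transcript. Values under 887 on A and 1373 on B, 2 times the noise seen in the negative values, were raised to that floor before log2 was taken. A difference is the mean log2 value in null hearts minus that in heterozygous hearts, with its standard error (SE) from limma. Some cells of the tables were blank. On A, heterozygous heart 6 lacked 71.8% and heterozygous heart N2 lacked 62.5% of the values, and on B null heart 3 lacked 80.6%. Of the 4494 probe sets tested, 1474 had a value in all 8 hearts, and 1428 on A had only 2 heterozygous values. Cardiomyocyte markers were present as the tissue label says, with 10 of 10 markers on the arrays above the floor in at least 4 of the 8 hearts. Markers of liver (Alb, Ttr, Apoa1) and of lung and foregut (Nkx2-1, Sftpc, Foxa2, Shh) were above the floor in none of the hearts that had a value, and Afp was above it in 1 heterozygous heart. Of these, Alb and Afp had a value in all 8 hearts, and Sftpc in only 3 null and 2 heterozygous hearts. On rows with all 8 values, Spearman correlations averaged 0.943 within and 0.941 between the genotypes on A, and 0.939 and 0.937 on B.

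No probe set passed an adjusted p of 0.05 in limma with Benjamini-Hochberg adjustment over both arrays (0 of 4494, 0% called), and the smallest adjusted p was 0.129. At an unadjusted p under 0.05 there were 260 probe sets, 5.79% of those tested, close to the share that threshold gives by itself. Of these, 128 (2.85%) had the higher mean in null hearts and 132 (2.94%) the lower. The median SE of a difference was 0.22, the median size of a difference was 0.16, and 18 probe sets differed by more than 1 on the log2 scale. The genes below are therefore those with the smallest p-values and the members of gene lists, given as values. None of them is a call, and an adjusted p above the threshold does not show that the genotypes were alike.

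**Figure D1:**
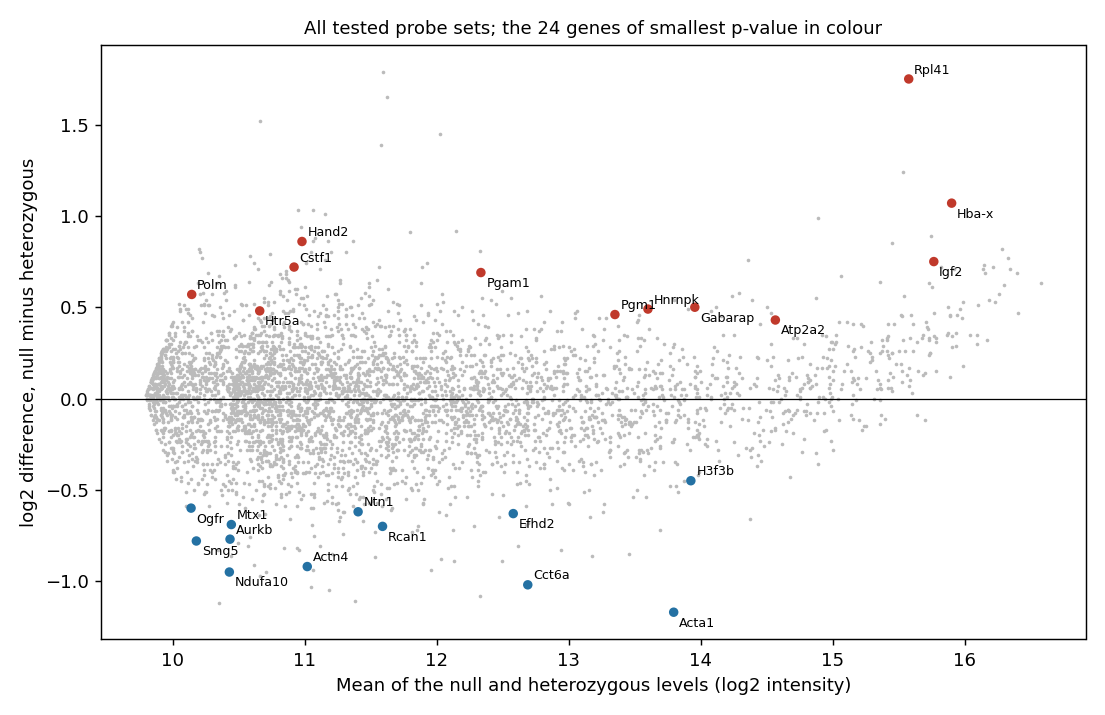
Difference between null and heterozygous hearts (vertical axis, log2) against the mean of both levels (horizontal axis, log2 intensity) for the 4494 tested probe sets in grey, with the 12 genes of smallest p-value in each direction in red (higher mean in null) and blue (lower mean). The grey points centre near 0 at low and middle levels and lie mostly above 0 at the brightest end, where Rpl41, Hba-x and Igf2 stand.

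The gene with the smallest p-value was Acta1, skeletal alpha-actin, which is also made by embryonic cardiomyocytes. Its intensity was 9718, 13169, 9846 and 6400 in null hearts 3, 4, 8 and N3, and 21623 and 20990 in heterozygous hearts 5 and 12, the only heterozygous hearts with a value. Every null heart was below both heterozygous hearts. The wild-type hearts, at 13313 to 21742, were above every null heart, and the highest of them was just above the heterozygous pair. The difference was -1.17 ± 0.25 (SE; limma adjusted p = 0.642). It ranged from -1.33 to -0.98 when single hearts were left out. Leaving out heart 5 or 12 left the other as the lone heterozygous value. Over all tested probe sets, null and heterozygous hearts did not overlap in 346 (7.7%), with null higher in 170 (3.78%) and lower in 176 (3.92%). With a value in all 8 hearts the share was 3.26%, so probe sets with blanks, such as that of Acta1, separated more often than 7.7%.

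Most other genes of the contractile apparatus had the higher mean in null hearts. Of 15 sarcomere and Z-disc genes tested, 12 had a higher mean in null hearts and 3 a lower one, against 51.2% above 0 over all 2733 genes, and the list's median was 0.27 beside 0.00731 over all genes. An unadjusted p under 0.05 was found for 1 of the 15 with a higher mean and 1 with a lower mean, beside 2.27% and 3.33% of all genes. Tnnc1, the calcium-binding troponin subunit, read 75613, 82378 and 67210 in null hearts 3, 4 and N3 and 57484 and 28437 in heterozygous hearts 5 and 12. The groups did not overlap, but the heterozygous pair differed between themselves more than the null hearts did. Its difference was 0.89 ± 0.31 (SE; limma adjusted p = 0.774), and 0.38 without heterozygous heart 12. Actc1, cardiac alpha-actin, was 102625, 151206, 154890 and 90178 in null hearts 3, 4, 8 and N3. It was 104531, 109080, 34277 and 97128 in heterozygous hearts 5, 6, 12 and N2. The groups overlapped, and heart 12 was far below the other null and heterozygous hearts. Wild-type hearts 7 and 9, of the same run of heart numbers, were as low, at 36779 and 27376, while null heart 8 was not. The difference of 0.63 ± 0.58 (SE) became 0.23 without heart 12. The ventricular light chain Myl2 went from 0.44 ± 0.50 to 0.16, and Myl3 from 0.46 ± 0.37 to 0.10, on leaving that heart out.

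This dependence reached beyond muscle genes, since heart 12 was low for bright probe sets in general. Among 95 B probe sets with a mean log2 intensity above 15, its values lay a median of 0.61 below their own mean over the 7 hearts without blanks, a deviation of -0.61, while the other heterozygous hearts were at 0.05 to 0.14. Of these 95, 82 had a difference above 0, with a median of 0.29 that became 0.10 without heart 12 and 0.06 under quantile scaling, which forces the arrays to 1 distribution. On A, 60 of 65 such probe sets (92.3%) had a difference above 0; their median of 0.26 became 0.17 without heart 12 and -0.03 under quantile scaling. The sarcomere list median likewise became 0.12 without heart 12 and 0.08 under quantile scaling.

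For Acta1, heart 12 was not low in this way, and both heterozygous values were close together. Without that heart the difference was -1.19, with heart 5 as the lone heterozygous value. The same holds for every gene with a value in heterozygous hearts 5 and 12 only, such as Tnnc1, Hba-x and Igf2. The Acta1 promoter window is shown because actin promoters of muscle are the textbook setting of the CArG box. That box is the binding sequence of serum response factor, a partner of Nkx2.5. Windows for Pgam1 and Hand2, a glycolytic gene and a cardiac transcription factor described further on, are shown beside it. They are RefSeq sequences of build GRCm38.p6, from 250 bases before to 50 bases after the annotated start, 5′ to 3′ on the gene's strand. Capitals mark a CArG box or the letters AAGTG or CACTT, the core of the NK2-family binding sequence on either strand.

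Acta1, chr8:123894726-123895025, minus strand: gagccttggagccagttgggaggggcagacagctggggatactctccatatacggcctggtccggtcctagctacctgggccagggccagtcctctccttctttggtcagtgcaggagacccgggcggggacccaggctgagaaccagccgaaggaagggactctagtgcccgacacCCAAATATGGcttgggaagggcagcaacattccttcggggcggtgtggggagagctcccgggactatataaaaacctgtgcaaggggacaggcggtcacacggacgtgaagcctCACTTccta
Pgam1, chr19:41911621-41911920, plus strand: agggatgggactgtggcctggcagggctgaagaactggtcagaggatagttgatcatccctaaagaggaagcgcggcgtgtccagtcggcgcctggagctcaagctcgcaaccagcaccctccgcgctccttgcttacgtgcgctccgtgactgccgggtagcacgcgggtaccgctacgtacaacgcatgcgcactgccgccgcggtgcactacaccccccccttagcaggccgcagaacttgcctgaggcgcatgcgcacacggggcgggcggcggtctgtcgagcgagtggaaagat
Hand2, chr8:57320733-57321032, plus strand: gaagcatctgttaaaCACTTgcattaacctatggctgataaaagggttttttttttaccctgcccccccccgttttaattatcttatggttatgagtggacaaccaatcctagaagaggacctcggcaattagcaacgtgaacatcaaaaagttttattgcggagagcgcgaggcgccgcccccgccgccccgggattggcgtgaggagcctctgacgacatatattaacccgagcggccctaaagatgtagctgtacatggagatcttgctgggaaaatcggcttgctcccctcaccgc

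In the Acta1 window a CArG box with the letters CCAAATATGG starts at position -73 from the start site, and CACTT starts at position 42. The Hand2 window holds CACTT at position -235, and the Pgam1 window holds neither. Of the 24 genes with the smallest p-values, 21 had a window in the RefSeq table. The AAGTG core, on either strand, was in 14 of these 21 and in 46.4% of all 32851 windows. A CArG box was in 2 of the 21, Acta1 and Igf2, and in 1.63% of all windows. The counts and the shares are in unlike units. A gene counted if any of its windows matched, and Igf2 had 4 windows and Rcan1 2, while the shares are over single windows. These matches describe letters only.

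Glycolytic enzymes gave the smallest p-value among genes with a higher mean in null hearts. Pgam1, the phosphoglycerate mutase that moves the phosphate of glycolytic intermediates, read 5703, 6959, 6840 and 6780 in null hearts 3, 4, 8 and N3. It read 5205, 4672, 2975 and 3742 in heterozygous hearts 5, 6, 12 and N2. All null hearts were above all heterozygous hearts, and the wild-type hearts, at 4397 to 6646, spanned the gap. The difference was 0.69 ± 0.18 (SE; limma adjusted p = 0.774) and 0.54 to 0.81 with single hearts left out. Among probe sets with all 8 values, 48 of 1474 (3.26%) had groups that did not overlap, 22 (1.49%) with null higher and 26 (1.76%) with null lower.

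Pgm1, which links glycogen and glucose phosphates, read 13894, 11814, 11817 and 11530 in null hearts and 10108, 8344 and 8335 in heterozygous hearts 5, 12 and N2. These groups did not overlap either, and the difference was 0.46 ± 0.14 (SE). Of 16 tested genes of glycolysis and the hypoxia response, 12 had a higher mean in null hearts, with a median of 0.26. The enzymes Pfkl (0.56 ± 0.29), Aldoa (0.46 ± 0.33), Ldha (0.41 ± 0.25) and Pkm (0.30 ± 0.17) were among the 12, each with an interval that includes 0. Without heart 12, Pfkl was at 0.36, Aldoa at 0.24 and Ldha at 0.27. Under quantile scaling Aldoa was at 0.16, Ldha at 0.22, Pkm at 0.19 and Pfkl at 0.61. Gapdh, another of the 12 at 0.62 ± 0.49, was at 0.34 without heart 12 and 0.08 under quantile scaling. That scaling also turned Tpi1 from 0.15 to -0.08. Hif1a, the oxygen-regulated factor, was at -0.11 ± 0.27, and the glucose carrier Slc2a1 at -0.10 ± 0.23. Both had heterozygous values in hearts 5 and 12 only, and both changed sign without heart 12, to 0.43 and 0.06. The glycolysis median was 0.24 without heart 12 and 0.17 under quantile scaling, and over 24 alternatives it ranged from 0.17 to 0.34. Fatty acid oxidation genes, which the fetal heart uses less than the adult heart, had a median of -0.03, with 7 of 18 above 0. Cpt1a, the entry step of long-chain fatty acids into mitochondria, had the smallest p-value there, at -0.59 ± 0.26 (SE), with 2 heterozygous hearts behind it.

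**Figure D2:**
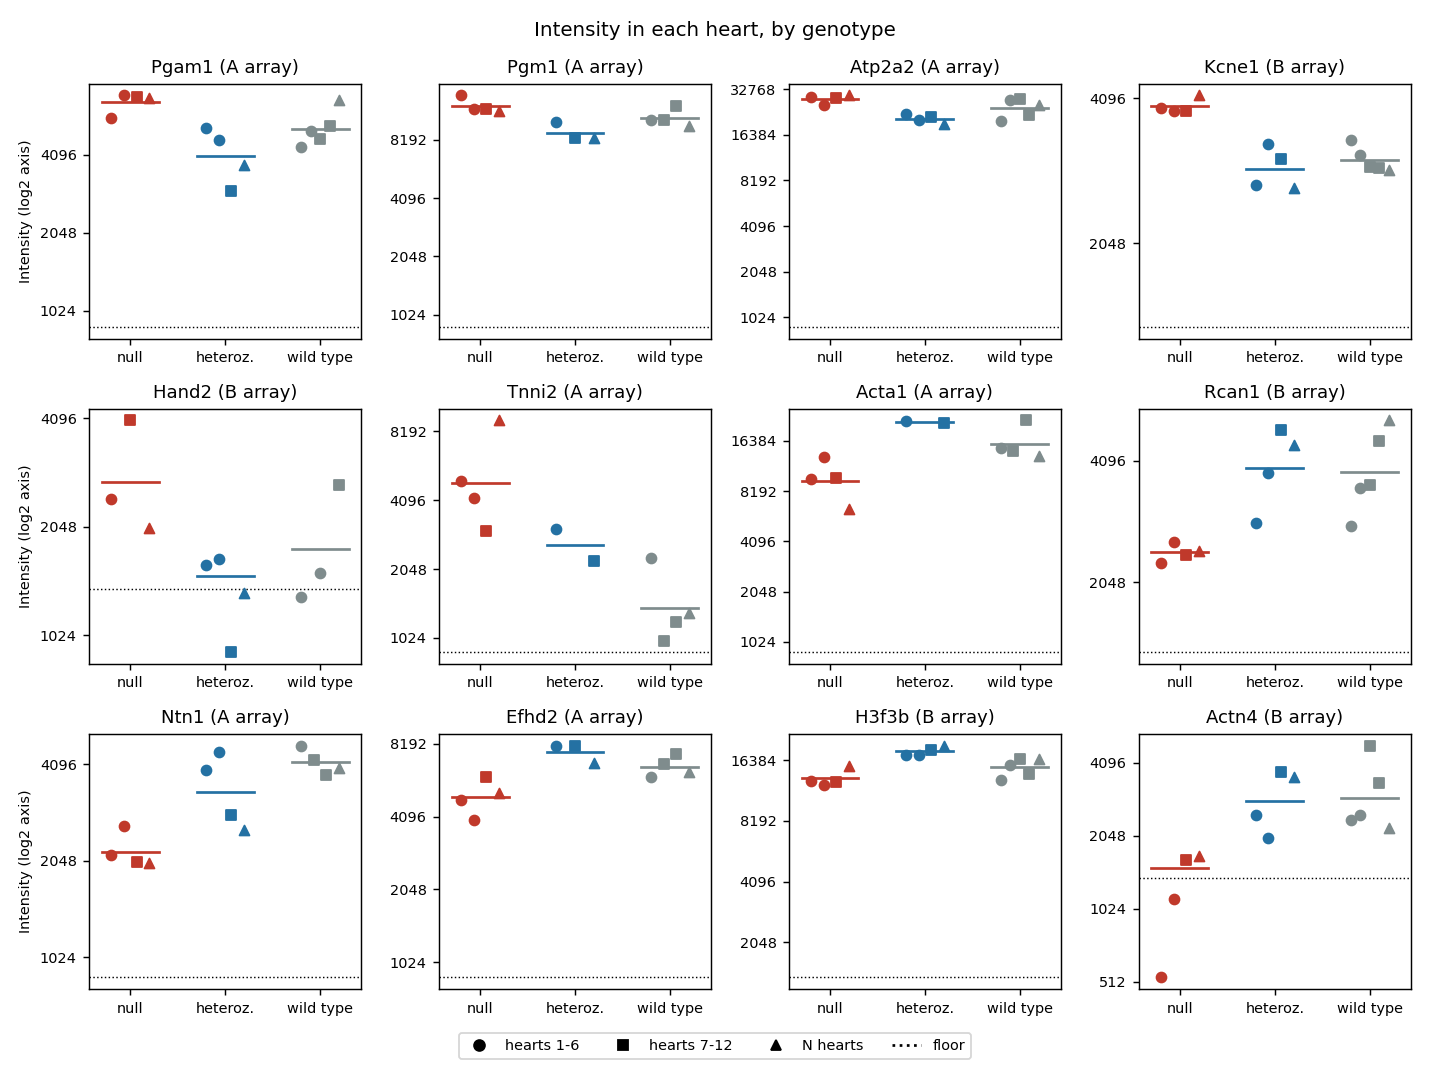
Intensity (vertical axis, log2 scale) of 12 genes in each null, heterozygous and wild-type heart; symbols give the heart-number group, bars the mean of the floored log2 values, and the dotted line the floor. Pgam1, Pgm1, Atp2a2 and Kcne1 show null hearts above heterozygous ones, and Acta1, Rcan1, Efhd2, H3f3b and Actn4 show them below; for Ntn1, null heart 4 (2635) is above heterozygous heart N2 (2548). In most panels the wild-type hearts overlap at least 1 of the groups.

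Calcium handling genes had opposite differences within the list. Atp2a2, the pump that refills the sarcoplasmic reticulum with calcium after each beat, read 28848, 25923, 28451 and 29850 in null hearts 3, 4, 8 and N3. Heterozygous hearts 5, 6, 12 and N2 read 22312, 20597, 21426 and 19380. The groups were well apart, and heart 12 was not the lowest. The difference was 0.43 ± 0.13 (SE; limma adjusted p = 0.774) and 0.36 to 0.47 over all 24 alternatives.

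Rcan1, an inhibitor of calcineurin that calcineurin signalling itself induces, read 2280, 2575, 2398 and 2447 in null hearts and 2878, 3814, 4894 and 4487 in heterozygous hearts. The null hearts were tightly grouped below every heterozygous heart, and also below every wild-type heart, the lowest of which was 2822. The difference was -0.70 ± 0.22 (SE). The calcineurin subunits Ppp3ca (-0.08 ± 0.29) and Ppp3cb (0.11 ± 0.20) had differences near 0 with wide intervals. So had the release channel Ryr2 (-0.02 ± 0.24) and the store protein Casq2 (-0.03 ± 0.31). Without heart 12, Ppp3ca was at -0.57, Ppp3cb at 0.08, Ryr2 at 0.11 and Casq2 at 0.24. Over the 10 tested genes of the list, 6 were above 0 and the median was 0.08.

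Among ion channels, Kcne1, the accessory subunit of the slow delayed-rectifier potassium channel and a gene tied to Nkx2.5 in earlier work, read 3904, 3851, 3850 and 4151 in null hearts. It read 2703, 3283, 3060 and 2663 in heterozygous hearts. All null hearts were above all heterozygous hearts and above all wild-type hearts, which read 2910 to 3344. The difference was 0.43 ± 0.16 (SE; limma adjusted p = 0.774) and 0.46 without heart 12. The connexins showed no such separation: Gja1 was at 0.06, with a 95% interval of -0.28 to 0.39, Gja5 at -0.34 ± 0.26 and Gjc1 at -0.22 ± 0.17. The channel list as a whole had 6 of 9 genes above 0 and a median of 0.04.

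The published targets and dependents of Nkx2.5, a list assembled with earlier results known, had 9 of 16 tested genes above 0 and a median of 0.03. Mb, myoglobin, read 7579, 19263, 7471 and 10172 in null hearts 3, 4, 8 and N3 and 14558, 19158, 18706 and 15690 in heterozygous hearts 5, 6, 12 and N2. Null heart 4 was above every heterozygous heart and the other null hearts were lower than all of them; the difference was -0.72 ± 0.25 (SE). Nppb, the B-type natriuretic peptide, was at -0.13, with a 95% interval of -0.54 to 0.28. Cited1, a transcriptional co-regulator of chamber myocardium, was at -0.51 ± 0.26 (SE), and its null heart 4 (17318) lay among the heterozygous values of 17403 and 17145. The members thus went both ways.

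Of 9 cardiac transcription factors and cofactors tested, 6 had differences above 0 and the median was 0.16. Hand2, a basic helix-loop-helix factor of the right ventricle and outflow tract, read 2445, 4043 and 2036 in null hearts 4, 8 and N3. It read 1600, 1662, 918 and 1342 in heterozygous hearts 5, 6, 12 and N2, the last 2 of them below the floor. The groups did not overlap, and the wild-type values of 1309, 1520 and 2674 reached into both. The difference was 0.86 ± 0.27 (SE; limma adjusted p = 0.774). Its relative Hand1 was at 0.00, with a 95% interval of -0.43 to 0.43.

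Mef2c, a MADS-box factor of the second heart field, had a difference of 0.40 ± 0.16 (SE), but no heterozygous heart exceeded the floor (502 to 824). Among the null hearts, 3 were above it at 1029 to 1632 and heart 4 was at 93.4. Gata6 was at 0.46 ± 0.29 and Gata4 at 0.16 ± 0.31, which turned to -0.22 without heart 12 and to -0.26 with the heart-number groups as a block. Mef2d (-0.49 ± 0.27) and the GATA cofactor Zfpm1 (-0.59 ± 0.29) had lower means in null hearts, and a second Zfpm1 probe set was at 0.00. The list median changed sign to -0.13 with the heart-number groups as a block and to -0.09 without heart 12.

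Endocardial, endothelial and cushion genes had the lowest list median. Of 13 tested, 11 had a lower mean in null hearts, and the median was -0.31; none of the 13 had an unadjusted p under 0.05, against 3.33% of all genes with a lower mean. Tie1, an endothelial receptor tyrosine kinase, read 3415, 3815, 6232 and 5377 in null hearts 3, 4, 8 and N3, and 5309, 6152, 7948 and 7069 in heterozygous hearts 5, 6, 12 and N2. Null hearts 3 and 4 were lower than every heterozygous heart, and null hearts 8 and N3 lay within their range. Its difference was -0.52 ± 0.24 (SE; limma adjusted p = 0.79). Eng, the endothelial TGF-beta co-receptor, showed the same 2 hearts low, at 8384 and 8768, with null heart 8 at 24514 beside a highest heterozygous value of 24539. For Eng, wild-type hearts 1 and 2 were also low, at 11278 and 10509, with the other wild-type hearts at 15431 to 20836.

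Over the 6 genes of the list with all 8 values, null hearts 3 and 4 deviated from the mean by a median of -0.38 and -0.36. Null hearts 8 and N3 were at 0.01 and -0.01, and heterozygous hearts 5, 6, 12 and N2 at 0.00, 0.06, 0.29 and 0.19. The list median was -0.21 with the heart-number groups as a block and -0.18 without heterozygous heart 5. In whole hearts, fewer endothelial cells and less RNA per cell cannot be told apart. The summed intensity of 4 endothelial markers was 15915 to 35423 in null and 25588 to 38693 in heterozygous hearts. That of 4 cardiomyocyte markers was 168871 to 273582 and 80888 to 194958. The lowest cardiomyocyte sum was that of heterozygous heart 12, with Actc1 at 34277 and Myl3 at 20120. For this sum the other heterozygous hearts lay within the null range. The part of cell composition in the list values was not tested.

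Extracellular matrix genes, many of them products of cushion and endocardial cells, had 25 of 35 members with a lower mean in null hearts and a median of -0.19. At an unadjusted p under 0.05 there were 4, all lower, beside 3.33% of all genes. The list median was -0.09 without null heart 4. Col4a1, a chain of basement membrane collagen, read 6437, 5528, 7835 and 7278 in null hearts and 9048 and 11108 in heterozygous hearts 5 and 12, without overlap; its difference was -0.58 ± 0.19 (SE; limma adjusted p = 0.774). Wild-type hearts read 5989 to 8377 for Col4a1, which overlapped the null and not the heterozygous values. The partner chain Col4a2 was at -0.36 ± 0.20, and the linker proteins Nid1 and Nid2 at -0.57 ± 0.27 and -0.43 ± 0.15. For Nid2, null hearts 4 and 8 (1050 and 1082) were below the floor, so its difference depends on the floor. Its wild-type hearts read 1052 to 1429, against 1660 to 2306 in heterozygous hearts. Fbln1, a matrix protein of the cushions, was at -0.72 ± 0.26, with null heart 8 (5351) inside the heterozygous range of 4426 to 7406. The member with the largest difference the other way was Col5a1, a fibrillar collagen chain, at 0.56 ± 0.27 (SE), and 0.35 without heterozygous heart 12. Over 13 matrix genes with all 8 values, null hearts 3 and 4 again deviated by -0.45 and -0.37, while null hearts 8 and N3 were at 0.26 and 0.25. Heterozygous hearts 5, 6, 12 and N2 were at -0.07, 0.05, 0.28 and 0.33. Within both genotypes the hearts numbered 1 to 6 were thus the lower ones.

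Ntn1, the secreted guidance protein netrin 1, read 2132, 2635, 2024 and 2014 in null hearts 3, 4, 8 and N3. Heterozygous hearts 5, 6, 12 and N2 read 3917, 4468, 2845 and 2548. Null heart 4 was just above heterozygous heart N2, so the groups overlapped, while the 4 measured wild-type hearts were at 3795 to 4680. The difference was -0.62 ± 0.19 (SE; limma adjusted p = 0.774). Wild-type hearts had a mean beyond the heterozygous one for Ntn1 and Actn4, and between both mutant means for the other 22 of the 24 genes. The 24 were chosen for their difference between these mutant hearts, which favours a wild-type mean between them. The share over all genes was not counted. Some of the 22 wild-type means were close to 1 group. Aurkb was at log2 10.05 in null, 10.82 in heterozygous and 10.10 in wild-type hearts, and Rcan1 at 11.24, 11.94 and 11.91.

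**Figure D3:**
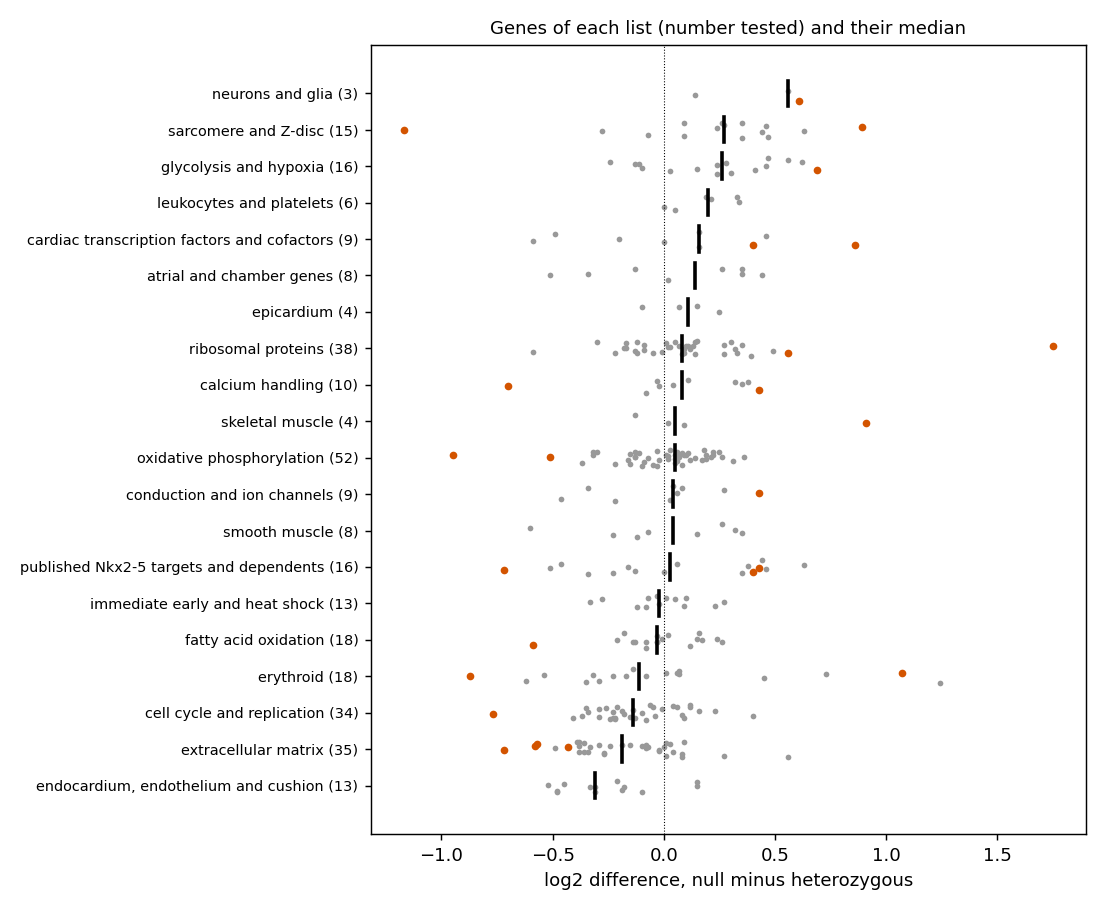
Differences between null and heterozygous hearts (horizontal axis, log2) of the tested genes in each list, with the number tested in brackets, the list median as a bar and genes with an unadjusted p under 0.05 in orange. Medians run from -0.31 for endocardium, endothelium and cushion to 0.56 for 3 genes of neurons and glia, and orange points lie on both sides of 0.

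Cell cycle and replication genes had 25 of 34 members with a lower mean in null hearts and a median of -0.14. Aurkb, a kinase of chromosome segregation and cytokinesis, was at 1178, 1371, 684 and 865 in null hearts and 1631 and 2014 in heterozygous hearts 5 and 12. Wild-type hearts, at 928 to 1326, were on the null side. Null hearts 8 and N3 were below the floor, and the difference was -0.77 ± 0.23 (SE; limma adjusted p = 0.774). Mki67 (-0.26 ± 0.23), Pcna (-0.35 ± 0.21) and Top2a (-0.22 ± 0.25) had the same sign with intervals that include 0. Ccnd1 was at 0.40 ± 0.26, and Ccnd3 at -0.37 ± 0.18 with a second probe set at 0.16. Heterozygous hearts 12 and N2 stood highest over the 8 genes with all values, at 0.36 and 0.30, and heart 5, at -0.17, was within the null range of -0.29 to -0.02.

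Genes of red cells differed between members. Hba-x, the embryonic zeta-globin chain, read 90815, 100892 and 75722 in null hearts 3, 4 and N3 and 62894 and 28403 in heterozygous hearts 5 and 12. Its difference of 1.07 ± 0.29 (SE; limma adjusted p = 0.774) was 0.49 without heart 12. Hba-a1, the adult alpha chain, was 42054 to 128569 in null hearts and 51829 to 60077 in heterozygous hearts 5, 6 and N2, but 5470 in heart 12; wild-type hearts 7 and 9 were also low, at 6712 and 2117. Its difference was 1.24 ± 1.14 (SE), and 0.40 without that heart. Globin probe sets share sequence, so the chains may not be fully separate here. Alad, the second enzyme of heme synthesis, went the other way at -0.87 ± 0.30 (SE), with 3025, 2009, 2385 and 1589 in null and 3707, 3424, 7282 and 2774 in heterozygous hearts. Null heart 3 overlapped heterozygous heart N2, and heart 12 was again apart, here as the highest; without it the value was -0.58. The red cell list had a median of -0.11 with 10 of 18 below 0. Over its 6 genes with all 8 values, null heart 8 was highest, at 1.1 above the mean, against -0.33 to 0.43 in the other hearts, and without it the list median was -0.28.

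Among ribosomal proteins, 25 of 38 were above 0 and the median was 0.08, which became -0.12 under quantile scaling and -0.01 without heart 12. Rpl41, a very small protein of the large subunit, read 90150, 92674 and 86212 in null hearts and 52309 and 13574 in heterozygous hearts 5 and 12. The difference of 1.75 ± 0.43 (SE; limma adjusted p = 0.774) was 0.78 without heart 12 and 2.72 without heart 5, where its adjusted p was 0.00212 with heart 12 as the lone heterozygous value. Rps18 was at 0.39 ± 0.22 and at -0.10 under quantile scaling. Igf2, the imprinted growth factor, had 68808 to 76710 in null hearts and 51851 and 35724 in heterozygous hearts 5 and 12. Its difference was 0.75 ± 0.23 (SE), 0.48 without heart 12 and 0.31 under quantile scaling.

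Subunits of oxidative phosphorylation had a median of 0.05, with 31 of 52 above 0. Of these 52, 0 with a higher null mean and 2 with a lower one had an unadjusted p under 0.05. Over all genes these shares were 2.27% and 3.33%. Ndufa12, a complex I subunit, read 6008, 8194, 7045 and 8841 in null hearts and 10699, 10746, 9749 and 11152 in heterozygous hearts. The groups did not overlap, and the wild-type hearts, at 5409 to 8386, were on the null side; the difference was -0.51 ± 0.16 (SE). Ndufa10 was at -0.95 ± 0.24 (SE). Its null hearts were at 413 to 1330, 2 of 4 above the floor, and heterozygous hearts 5, 12 and N2 at 1722 to 2062. Wild-type hearts were at -369 to 1735, with 1 of 4 above the floor. Over 24 alternatives the Ndufa10 difference ranged from -1.37 to -0.52. Ndufs3 was higher in every null heart, at 15127 to 16696 against 12937 to 14095, by 0.21 ± 0.11 (SE; unadjusted p = 0.0696).

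The 12 smallest p-values with a lower null mean also belonged to genes outside these lists. Efhd2, a calcium- and actin-binding protein, read 4806, 3961, 5998 and 5152 in null hearts and 8055, 7994 and 6805 in heterozygous hearts 5, 12 and N2. Its difference was -0.63 ± 0.16 (SE; limma adjusted p = 0.774). H3f3b, which encodes the replication-independent histone H3.3, read 12283 to 15387 in null hearts and 17430 to 19377 in heterozygous hearts, a difference of -0.45 ± 0.13 (SE). Wild-type hearts, at 13080 to 16618, overlapped the null and not the heterozygous values.

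Actn4, a non-muscle alpha-actinin, read 535, 1130, 1629 and 1698 in null hearts, 2 of them below the floor, and 2004 to 3746 in heterozygous hearts. Its difference was -0.92 ± 0.26 (SE), while a second Actn4 probe set was at 0.10 ± 0.26. Cct6a, a subunit of the chaperonin that folds actin and tubulin, was at -1.02 ± 0.32 (SE), with null heart 4 (2206) far below null hearts 8 and N3 (5796 and 7836); without that heart it was -0.48. Mtx1 (-0.69 ± 0.21), a mitochondrial outer membrane protein, and Ogfr (-0.60 ± 0.18), the opioid growth factor receptor, were dim, with no null or heterozygous heart above 1861 and 1970. Smg5, a factor of nonsense-mediated decay, was below the floor in every null heart. Its fitted -0.78 ± 0.24 depends on the floor, and another Smg5 probe set was at -0.17 ± 0.19.

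With a higher null mean, Gabarap, an autophagy protein, read 15344 to 23932 in null and 11330 to 14464 in heterozygous hearts (0.50 ± 0.16, SE). Hnrnpk, an RNA-binding protein, read 13226 to 15918 and 8316 to 12647 (0.49 ± 0.15, SE), and Cstf1, a polyadenylation factor, 2223 to 2766 and 1319 to 1957 (0.72 ± 0.21, SE). None of these groups overlapped. Htr5a, a serotonin receptor, and Polm, a DNA polymerase of end joining, had differences of 0.48 ± 0.13 and 0.57 ± 0.18. Null hearts read 1529 to 2194 for Htr5a and 702 to 1718 for Polm. The highest heterozygous heart of each gene, 1335 and 1072, was near or below the floor. The Polm groups overlapped, and both differences depend on the floor.

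Markers of tissues that border the heart gave few tested members. Tnni2, the fast skeletal troponin I, read 4959, 4184, 2997 and 9144 in null hearts and 3055 and 2213 in heterozygous hearts 5 and 12. Null heart 8 lay between the heterozygous pair, and the wild-type hearts, at 993 to 2290, were lower than every null heart; the difference was 0.91 ± 0.40 (SE; limma adjusted p = 0.79). Of the other skeletal genes, Myog was at 0.09 ± 0.36 and Ckm at -0.13 ± 0.41. Stmn3, a neuronal microtubule regulator, was at 0.61 ± 0.27 and Ncam1 at 0.56 ± 0.37, and the median of the 3 tested genes, 0.56, was 0.22 without null heart 8; only 3 of 22 neuronal and glial genes on the arrays were tested, and Tubb3 was above the floor in none of the 8 hearts and Sox10 in none of the 3 null and 2 heterozygous hearts with a value. Epicardial genes had a median of 0.11 over 4 genes. Immediate early and heat shock genes, which respond to handling, had a median of -0.02 over 13.

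The remaining lists and members had values of the same order. Atrial and chamber genes had 5 of 8 above 0 and a median of 0.14, which was -0.11 under quantile scaling and -0.12 without null heart 4. Smooth muscle genes had 4 of 8 above 0 and a median of 0.04, with Tpm2, a tropomyosin, at -0.60 ± 0.31 (SE). Leukocyte and platelet genes had 5 of 6 above 0 and a median of 0.20, and of 2 tested liver genes Apoe was at -0.72 ± 0.49 and Amy1 at 0.09 ± 0.23. In the endocardial list, Icam2, an adhesion molecule, was at -0.31 ± 0.17 and Emcn, endomucin, at -0.21 ± 0.11. Emcn was above the floor in 2 of 4 null and 3 of 4 heterozygous hearts. Npr3, the natriuretic peptide clearance receptor, was at -0.48 ± 0.22, with a second probe set at 0.00 ± 0.29. On the first Npr3 probe set, wild-type hearts (2214 to 2919) lay within the null range of 2174 to 3216. The 2 heterozygous values were 3393 and 3570. Asph, an endoplasmic reticulum hydroxylase gene that also encodes junctin, was at 0.32 ± 0.17. Rrm2, a subunit of ribonucleotide reductase, was at -0.41 ± 0.22, and the embryonic globin Hbb-bh1 at -0.54 ± 0.30. Dusp1, a phosphatase of MAP kinases, was at -0.28 ± 0.14, and the co-chaperone Dnajb1 at -0.33 ± 0.19 with a second probe set at 0.06 ± 0.23. For Dusp1, 2 of 4 null and 3 of 4 heterozygous hearts were above the floor. Rps15, of the small ribosomal subunit, was at 0.56 ± 0.22, at 0.35 without heart 12 and at 0.26 under quantile scaling. Cox7a2l, which helps respiratory complexes assemble into supercomplexes, was at -0.37 ± 0.18.

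Unnamed probe sets gave the smallest p-values of all. The A probe set c80735_rc_at read 2477, 3167, 3241 and 2254 in null hearts and 1034 and 868 in heterozygous hearts 5 and 12, the last below the floor. The wild-type hearts, at 2099 to 2984, were like the null ones, and the heterozygous pair alone was low. The difference was 1.52 ± 0.25 (SE; limma adjusted p = 0.129), and 1.62 with the heart-number groups as a block, where the adjusted p was 0.0329. The B probe set w08218_s_at read 3568, 5328, 2391 and 3403 in null hearts 3, 4, 8 and N3 and 6295, 7455, 10667 and 6207 in heterozygous hearts 5, 6, 12 and N2. The wild-type hearts were at 8716 to 10731, so the heterozygous mean stood between null and wild type. The difference was -1.08 ± 0.22 (SE; limma adjusted p = 0.411). No gene is paired with either probe set in the platform annotation used here.

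Heart numbers fall into 3 series, 1 to 6, 7 to 12 and N, each with null and heterozygous hearts; the labels do not say what the series mean. Of the 24 genes, 18 had both genotypes in all 3 series, and each of the 18 kept its sign in every series. These genes were chosen on the same hearts, so this describes them and supports nothing further. The size varied: Pgam1 was 0.35 in hearts 1 to 6, 1.20 between hearts 8 and 12, and 0.86 between N3 and N2. Atp2a2 was steadier, at 0.35, 0.41 and 0.62.

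**Figure D4:**
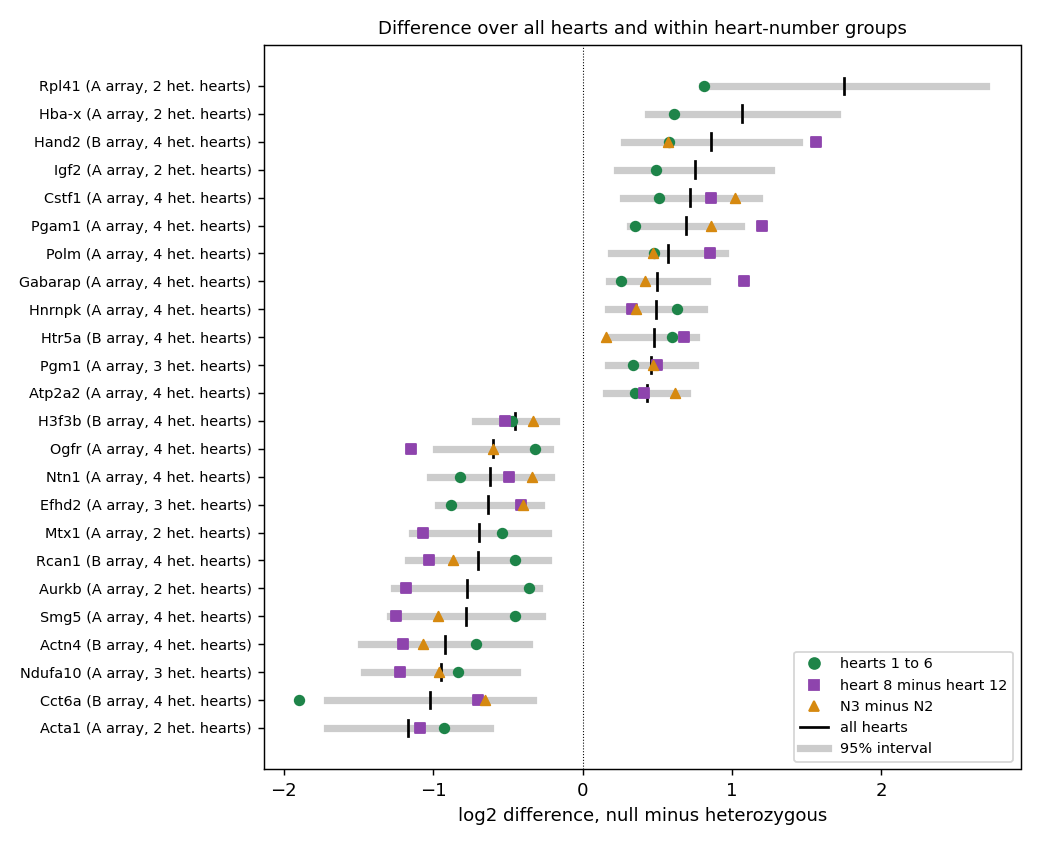
Difference between null and heterozygous hearts (horizontal axis, log2) for the 24 genes of smallest p-value: black bars over all hearts, grey bands the 95% intervals of limma, and symbols the difference within each heart-number series. Symbols lie on the same side of 0 as the bar for each gene, and genes with 2 heterozygous hearts on A have no N value.

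The RNA quality measures on the arrays were compared between the 4 null and 4 heterozygous hearts. On A, the Gapdh control signal from the 3′ end over that from the 5′ end was, as a log2 ratio, -0.14 ± 0.03 (SD, n = 4) in null and 0.00 ± 0.07 (SD, n = 4) in heterozygous hearts. The exact two-sided permutation p was 0.0286, the smallest that 4 against 4 allows, and 0.171 after adjustment over 6 measures. The other 5 measures, among them the beta-actin ratio and the share of probe sets above the floor, had an exact p of 0.314 to 0.857. The part of RNA quality in the differences was not tested.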

How the data were processed

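Intensities, 1 per probe set and array, were used as the authors deposited them on a linear scale; for the array software, nothing is given in the sources used here. Means between the 2 and 98 percentiles were 1500 on every array without blank cells, so the deposited values had been scaled. Blanks were missing values. Negative and low intensities were raised to the floor, 2 times the root mean square of the negative values. Testing required at least 4 of 13 hearts above the floor and at least 2 values each in null and heterozygous hearts; the 55 control probe sets per array were left out. Log2 values of all 13 hearts were fitted with limma 3.58.1 (R 4.3.3), 1 fit per array with a variance trend, and p-values were adjusted over both arrays by the Benjamini-Hochberg method. The fit was tested on simulated data.

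Genes were named through the platform annotation and RefSeq symbols (5551 of 5560 gene identifiers matched on A, 1993 of 2001 on B); where a gene had several probe sets, that with most values in the 8 hearts, then the brightest, was used. Named were the 12 smallest p-values per direction, up to 4 members per list with an unadjusted p under 0.1, and up to 2 unnamed probe sets per direction; other list members are given for context and were chosen after their values were seen. The hearts compared, the members and the gene lists were chosen with earlier results of these data known. Alternatives were another floor, filter, scaling, array weights, no variance trend, a fit to the 8 hearts alone, heart-number groups as a block, and leaving out mostly blank arrays or single hearts. Precision is limited by how many arrays were run.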

Additional observations from a re-analysis of the deposited data

Results flagged for a closer look

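In groups of 4 or 5 hearts, a single heart stood apart from the others by Dixon's criterion in 9 of 132 groups of named genes. Chance gives about 1 in 20, a rate that does not apply to 3 of the 9 (Polm, Ndufa10 in wild-type heart 2 and Emcn), where all other hearts were at the floor and any heart above it stands apart. Null heart 3 was the lowest null heart for Pgam1, at 5703 against 6780 to 6959, and the highest for Pgm1, at 13894 against 11530 to 11817, and for Ndufa10, at 1330 against 887 (the floor) to 932. Heterozygous heart N2 alone was above the floor for Polm (1072) and alone low for Asph, at 868, which counts as the floor of 887, against 1319 to 1370. Heterozygous heart 12 was the highest for Mef2d, at 5013 against 3305 to 3543. Among wild-type hearts, heart 2 was highest for Ndufa10 (1735, the others at the floor) and for Rps18 (66206 against 44286 to 46702), and heart 1 was the only one above the floor for Emcn (918).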

How the results depend on the processing

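The count of probe sets past the adjusted threshold, 0 as reported, was 1 with heart-number groups as a block (c80735_rc_at), 1 with no filter on low values (R74679_rc_s_at) and 0 to 2 with single hearts left out; it was 2 without heterozygous heart 12 (C80478_rc_f_at and c81283_rc_g_at) and 1 without heterozygous heart 5 (Rpl41). Each of these 3 then rests on 1 heterozygous heart, assumed to vary like the other groups. The count at an unadjusted p under 0.05, 260 as reported, was 432 with the block, 777 with no filter (13069 probe sets tested) and 161 to 311 with single hearts left out, lowest without heart 12. The cause of these shifts was not tested, except that more probe sets were tested with no filter. Of 1406 comparisons of named genes with an alternative, 1403 kept direction and side of the threshold, 2 passed it, and Rps18 turned to -0.10 under quantile scaling. Of 480 comparisons of list medians, 13 moved by more than the spread between hearts. Sign is a separate matter. The median changed sign or became 0 in 12 of 24 alternatives for immediate early and heat shock genes. It did so in 10 of 24 for the published targets and 6 of 24 for skeletal muscle. The count was 0 of 24 for the sarcomere, glycolysis, endocardial, matrix and cell cycle lists. It was also 0 of 24 for calcium handling, epicardium, leukocytes and platelets, and neurons and glia. All alternatives reuse the same hearts. No paired analysis was possible because null and heterozygous hearts share no number. Signal near the floor limits low genes, and 2 heterozygous values limit many genes on A.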
